A study of Mus musculus with 30 samples.

Results

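Single muscle fibres from the extensor digitorum longus (a fast muscle of the hindlimb) were compared between muscles that received an MCU vector and muscles that received none, 7 days after injection. The comparison uses 7 of the 30 samples of the series: 3 fibres with the vector, chosen by the titles that name AAVMCU and 7 days, and 4 wild type fibres chosen by the titles that name wild type and 7 days. All mice were male CD1, an outbred strain, and were 8 weeks old when muscles were injected. The vector was an adeno-associated virus (AAV) made to overexpress MCU, and it was injected along the length of the muscle. Wild type fibres came from mice of matching age and carried no virus, so injection, virus, marker protein and MCU differ together between these groups and cannot be told apart. Injected fibres were picked for the green marker ZsGreen, and part of each fibre's RNA went first to a PCR measurement of MCU, after which only fibres with the intended change were profiled. The labels do not name the animals, so fibres may share one and p-values measure the spread between fibres. The promoter that drives the vector is not given in the sources used here.

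Each fibre's amplified RNA was hybridised to a 1-colour Agilent mouse array of its own, and all 7 arrays lay on 1 slide, with the MCU vector fibres in other columns of it than the wild type fibres. A level below is log2 of a probe's processed signal minus the 75th percentile of its array, so a level of 0 is the 75th percentile and a difference of 1 is a change of 2-fold. The 75th percentile itself lay between 118.8 and 135.9 signal units, and the share of probes called well above background was 54.65% to 58.66%. Across genes, levels correlated at 0.968 to 0.983 between the MCU vector fibres, at 0.973 to 0.984 between wild type fibres and at 0.963 to 0.978 between groups. Fast fibre genes were measured in every fibre: Tnnt3, fast troponin T, was at 8.80, 8.78 and 8.99 with the vector and at 8.72 to 8.83 in wild type. None of the 14 fast and 11 slow contractile genes tested passed the test described next, and at an unadjusted p below 0.05 none did either.

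The mitochondrial calcium uniporter is a channel of the inner mitochondrial membrane through which calcium released during contraction enters the matrix, where it stimulates the dehydrogenases that feed the respiratory chain. MCU forms the pore, MCUB is a related subunit that lowers its conductance, EMRE (encoded by Smdt1) is needed for transport, and regulatory subunits gate the channel. Most of the genes with a symbol that rose at day 7 belong to another system. Interferons bind receptors that signal through JAK kinases to STAT and IRF transcription factors, and these switch on many genes for the defence against viruses and for the display of peptides to T cells. Type I interferons act mainly on a promoter element called ISRE, and interferon gamma acts mainly on one called GAS. Resting muscle fibres hold little MHC class I and almost no MHC class II protein, and both are known to rise in fibres exposed to interferon gamma.

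Mcu is the gene the vector was made to raise. Its level was 3.62, 3.16 and 3.11 in the 3 MCU vector fibres and 2.76, 2.50, 2.58 and 2.94 in the 4 wild type fibres. Every MCU vector fibre was thus above every wild type fibre, as were 942 of 23335 genes with a value in all 7 fibres (4.04%). The difference was 0.60 (SE 0.41, 1.52-fold, 95% interval -0.24 to 1.44) and did not pass, with an adjusted p of 1 in limma over 23341 genes. At day 14, on a slide of its own with its own wild type fibres, the difference was 3.90 (adjusted p = 4.2e-06, limma), with levels of 6.40, 5.88, 6.68 and 6.56 in the MCU vector fibres. The effect was 3.30 larger at day 14 than at day 7 (SE 0.56, adjusted p = 0.0034, limma). The only kept Mcu probe lies at chr10:58929203-58929262 of mouse build mm9, and its bases are shown because they decide which transcripts, endogenous or from the vector, it can bind:
Mcu probe: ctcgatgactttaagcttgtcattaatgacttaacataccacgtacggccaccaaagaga
The files give the gene of a probe but not its exon, and whether the vector's transcript holds these bases was not tested. Because fibres were selected by PCR of MCU, its level is not independent of the choice of fibres.

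**Figure D1:**
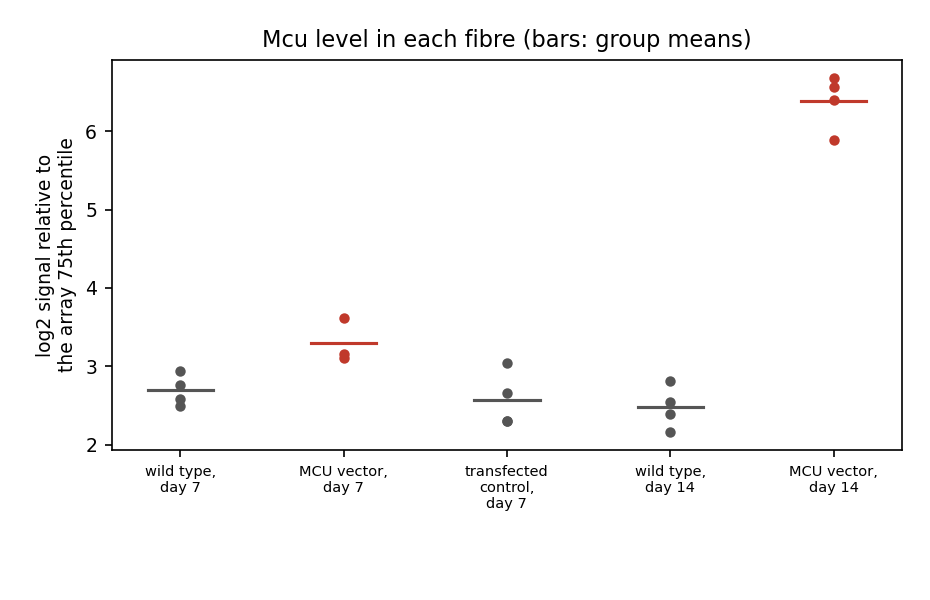
Mcu level in each fibre (points, log2 signal over the 75th percentile of its array) with group means as bars, for wild type, MCU vector and transfected control fibres of day 7 and for wild type and MCU vector fibres of day 14. At day 7 the MCU vector fibres sit at 3.11 to 3.62 and the wild type fibres at 2.50 to 2.94; the day 14 MCU vector fibres sit at 5.88 to 6.68.

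The other 13 genes of the uniporter list did not pass at day 7. Mcub was at -2.80, -1.67 and -1.77 with the vector and at -2.35 to -1.66 in wild type. Smdt1 was at 5.61, 5.68 and 5.65 with the vector and at 5.55 to 5.68 in wild type, a difference of 0.05 (SE 0.14). Micu2 and Micu3, which gate the channel, differed by 0.22 and 0.19. Letm1, a mitochondrial ion exchanger, and Slc8b1, the mitochondrial sodium-calcium exchanger, differed by -0.27 and -0.21, with another kept probe of each at 0.31 and 0.14. Mcur1, Vdac1, Vdac2, Vdac3, Slc25a23 and Ghitm differed by -0.17 to 0.03. The fibres of both groups overlapped for all 13 genes, and the list's median difference of -0.04 lay beside a median of -0.01 over all genes tested.

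Over all genes, 126 of 23341 were higher with the MCU vector (0.54%) and 8 were lower (0.0343%) at an adjusted p below 0.05 (limma, Benjamini-Hochberg). The median difference among the genes that rose was 2.87, or 2.63 with the 20 genes that no wild type array measured well above background set to their lower bound. On the latter terms 52 genes were at least 8-fold higher. Some of the 20 may have entered the test through the MCU vector fibres alone. Their wild type values lie in the background, so their p-values do not rest on a measured spread in wild type. For 125 of the 126 every MCU vector fibre lay above every wild type fibre, beside 942 of 23335 genes overall (4.04%). The 126 were called on the same difference in the same fibres, so the 125 is a description and no support for the calls. Of the 126, 102 carry a gene symbol, and 61 of these 102 (59.8%) belong to the 11 lists of interferon-induced, signalling and antigen presentation genes. All gene and marker lists together, of which the 11 are only a part, hold 731 of the 23341 genes tested. That number is thus not a background for the 59.8%. The lists were chosen with earlier results of these data known, so the 59.8% is a description and no test of the lists. MCU vector fibre 3 had the highest level of the 3 for 113 of the 126 genes and fibre 1 the lowest for 94, whereas over all genes fibre 3 was highest for 44.1%. Without any 1 of the 7 fibres, 109 to 125 genes were higher and 5 to 11 were lower, but only 2 to 6 of the 8 lower genes were among the latter. Leaving out MCU vector fibre 2 left 5 lower genes, and weighting arrays by their quality gave 227 higher and 116 lower genes. In a fit of the 7 arrays alone, calls were lost for Gbp4, Stat2, Psmb10, Psme2, Timp1 and the 4 lower genes with a symbol (adjusted p = 0.052 to 0.50, limma).

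**Figure D2:**
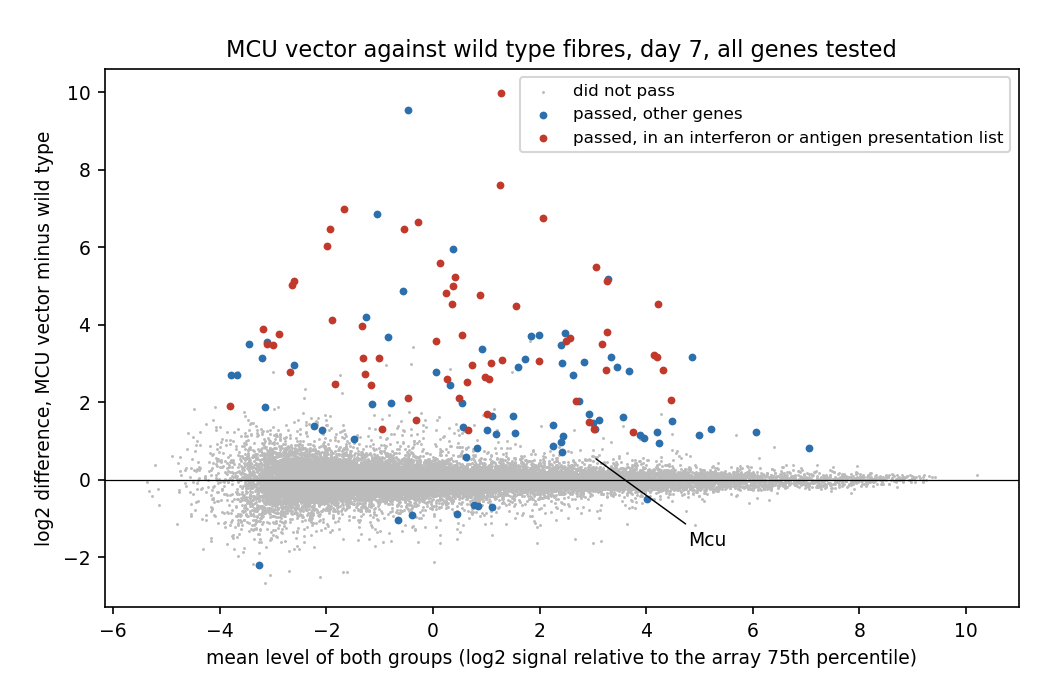
Difference between groups at day 7 (y axis, log2, MCU vector minus wild type) against the mean level of both groups (x axis, log2 signal over the 75th percentile of its array) for the 23341 genes tested. Red points passed and belong to an interferon or antigen presentation list, blue points passed and belong to none, and grey points did not pass. The 126 higher genes spread up to a difference of 9.97, while Mcu lies at 0.60 among the genes that did not pass.

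The immunity-related GTPases (IRG proteins), which attack the vacuoles of intracellular parasites, held the largest rises. Of 11 genes tested, 10 rose and none fell, with a median difference of 4.53. Igtp, also called Irgm3, was at 4.86, 5.52 and 5.94 with the vector and at -1.42, -1.79, -1.56 and -0.52 in wild type. The groups were thus far apart, by 6.76 or 108-fold (SE 0.51, adjusted p = 2.4e-09, limma). Irgm2 was at 5.48, 5.84 and 6.05 against -0.33, 0.76, 0.12 and 0.71, a difference of 5.48 (adjusted p = 1.4e-07, limma). Irgm1, a regulator of the other IRG proteins, was at 3.40, 3.82 and 4.19 against -0.88 to -0.36, a difference of 4.48 (adjusted p = 5.2e-08, limma). Iigp1 rose by 2.84 on the probe with the higher signal, and its other kept probe was too dim in wild type (mean -4.47) to size a rise. Gm4951, another gene of the family, rose by 7.62 (196-fold), with wild type levels of -3.43 to -1.98 and MCU vector levels of 4.75 to 5.28. The rise of Gm4841 was the largest of all measured, at 9.97, but its wild type levels ran from -5.37 to -1.30 and only 1 of its 4 wild type arrays was well above background. Where no wild type array was well above background, the rise is given as a lower bound, taken against the lowest signal well above background on those arrays: at least 33.7-fold for Iigp1b and, outside the list, at least 49.6-fold for Gm12185. F830016B08Rik rose by 4.53 (adjusted p = 0.038, limma), a call lost without any of 6 fibres, all but wild type fibre 2 (adjusted p = 0.081 to 0.19). BC023105, outside the list, rose by 5.19 (adjusted p = 0.024, limma), a call lost without the same fibres (adjusted p = 0.059 to 0.12). IRG genes resemble each other in sequence, so probes of the family can bind each other's transcripts.

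Guanylate-binding proteins (GBPs), large GTPases that interferon gamma induces and that act with the IRG proteins, rose for 5 of 9 genes tested, with a list median of 1.89, which was 0.38 with normexp background correction, 0.22 with dim spots at the lowest signal well above background and 3.32 with a stricter filter on dim probes. Gbp6 was at 2.50, 2.95 and 3.60 with the vector and at -2.37 to -2.05 in wild type, 37.3-fold higher (adjusted p = 8.5e-05, limma). Gbp10 was at 5.43, 5.78 and 6.28 against 0.14 to 1.95, and Gbp7 was at 2.84, 3.39 and 3.59 against -2.16 to -0.21. Gbp7 rose by 4.76 and Gbp10 by 5.13. In Gbp11 the wild type fibres were spread from -5.33 to -1.85 below MCU vector levels of 2.59 to 3.54, and its adjusted p moved from 0.0055 to 0.051 without MCU vector fibre 3. Gbp4, which 1 of 4 wild type arrays measured well above background, differed by 1.89 (adjusted p = 0.029, limma) but by 0.38 with normexp and by 0.22 with dim spots at that lowest signal (adjusted p = 0.97), and the call was lost with both. Wild type fibre 3 at -3.01 overlapped the vector fibres at -3.18 to -2.46. Its call was also lost without any MCU vector fibre (adjusted p = 0.059 to 0.25) and without wild type fibre 1, 2 or 4 (0.13 to 0.16). Gbp5 differed by -0.13 (SE 0.18) on its brighter probe, while its other kept probe was 2.41 higher (adjusted p = 0.00017 over probes, limma) from a wild type mean of -2.88.

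Promoters of the genes that rose were searched for both interferon elements, because the data show these genes moving together. The RefSeq table used here (build GRCm38.p6) holds windows of 300 bases, from 250 before to 50 after a start site, for 76 of the 126 genes that rose and for 11519 of the 23341 tested. The core of ISRE was written as GAAANNGAAA and that of GAS as TTCNNNGAA, each searched on both strands, and matches of both may overlap. An ISRE core was present in 22 of the 76 genes that rose (28.9%) and in 414 of all 11519 (3.59%). A GAS core was present in 12 of the 76 (15.8%) and in 962 of all (8.35%). All 5 IRG genes that rose and have a window held the ISRE core and 4 of them the GAS core, whereas the 4 MHC class II pathway genes held neither. Members of a gene cluster can share promoter sequence, so they are not independent, and a match is no evidence that a factor binds there.

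Below are the 170 bases before the start site, 5′ to 3′, for 7 genes that rose and whose windows hold a core. Capitals mark the ISRE and GAS cores. They show that Igtp and Irgm2, both on chromosome 11, share both cores in the same order, that Gbp7 also holds both, that Irgm1, B2m and Ifit3 hold only ISRE cores and that Psmb8 holds only a GAS core.
Igtp (chr11:58199386-58199555, plus strand): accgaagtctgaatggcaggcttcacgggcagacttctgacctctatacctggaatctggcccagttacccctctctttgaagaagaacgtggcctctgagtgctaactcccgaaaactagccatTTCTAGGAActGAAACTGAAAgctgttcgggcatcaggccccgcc
Irgm2 (chr11:58214807-58214976, plus strand): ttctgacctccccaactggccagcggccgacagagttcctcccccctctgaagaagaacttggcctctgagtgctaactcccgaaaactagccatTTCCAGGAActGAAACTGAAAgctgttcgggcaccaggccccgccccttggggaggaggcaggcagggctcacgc
Irgm1 (chr11:48871421-48871590, minus strand): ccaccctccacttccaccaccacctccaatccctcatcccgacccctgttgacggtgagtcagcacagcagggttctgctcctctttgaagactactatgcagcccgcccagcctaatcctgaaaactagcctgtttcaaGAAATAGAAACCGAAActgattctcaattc
Gbp7 (chr3:142530166-142530335, plus strand): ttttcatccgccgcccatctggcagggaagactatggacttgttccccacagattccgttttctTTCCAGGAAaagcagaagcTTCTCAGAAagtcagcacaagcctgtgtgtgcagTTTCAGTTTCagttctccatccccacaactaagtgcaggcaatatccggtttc
Psmb8 (chr17:34198025-34198194, plus strand): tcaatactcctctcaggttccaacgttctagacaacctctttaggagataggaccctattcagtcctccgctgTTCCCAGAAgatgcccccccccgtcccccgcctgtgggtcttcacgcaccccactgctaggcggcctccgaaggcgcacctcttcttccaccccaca
B2m (chr2:122147517-122147686, plus strand): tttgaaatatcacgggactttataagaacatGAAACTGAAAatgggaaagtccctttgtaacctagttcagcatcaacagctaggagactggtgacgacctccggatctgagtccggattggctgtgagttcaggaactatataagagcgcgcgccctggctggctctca
Ifit3 (chr19:34583359-34583528, plus strand): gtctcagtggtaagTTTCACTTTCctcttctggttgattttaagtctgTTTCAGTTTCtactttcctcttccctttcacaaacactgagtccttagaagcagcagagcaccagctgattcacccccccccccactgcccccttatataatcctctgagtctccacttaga

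Among antiviral effectors, which block viral entry, translation and replication, 9 of 32 genes tested rose and none fell, and the list's median difference was 0.46, with 0.25 under normexp and 0.70 without wild type fibre 3. Ifit3, which binds other IFIT proteins on viral RNA, was at 1.76, 2.54 and 3.58 with the vector and at -2.36 to -1.66 in wild type (23.2-fold, adjusted p = 6e-09, limma). Ifit3b, its near copy, rose by 3.74 and may share its signal. Xaf1, an interferon-induced regulator of apoptosis, was not well above background on any wild type array and was at least 9.22-fold higher. Trim21, an antibody receptor of the cytosol, was at least 4.01-fold higher. Rtp4 was at 1.70, 2.38 and 2.82 against -1.01 to 0.49 (adjusted p = 0.00013, limma), and Ifi27 was at 5.36 to 5.65 against 3.11 to 3.74 (4.16-fold, adjusted p = 3.2e-05, limma). The MCU vector fibres lay above all wild type fibres for 13 of the 32 genes (background 4.04%), and 23 did not pass. Among those was Oas1a, an RNA-activated synthetase of the antiviral response, at -1.83 to -1.56 against -1.99 to -1.33.

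In the group around ISG15, a ubiquitin-like modifier, and the PARP enzymes, which attach ADP-ribose, 5 of 12 genes rose. Parp14 was at 2.01, 2.66 and 3.39 with the vector, against wild type levels of -5.11 to -2.96 that were not well above background, and was at least 56.9-fold higher (adjusted p = 2.3e-07, limma). Parp12 was at least 3.95-fold higher on the same terms. Dtx3l, a ubiquitin ligase that pairs with PARP9, was at 1.35, 1.68 and 2.67 against -1.01 to -0.19, and Parp10 rose by 2.12. The list's median was 1.39, 1.15 with bounded genes at their bound and 0.52 with normexp. Usp18, which removes ISG15 and restrains interferon signalling, was at -0.67, 0.08 and 0.82 against -2.82 to -2.47 (adjusted p = 0.0021, limma). Isg15 itself did not pass: it was at -0.52, -0.23 and -0.33 against -1.21 to -0.36 (0.44, SE 0.18, adjusted p = 0.78, limma). Parp9 differed by -0.12 on its brighter probe, while the other was higher (adjusted p = 8.4e-06 over probes, limma) from a wild type mean of -4.18, too dim to size the rise.

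Of the sensors of foreign nucleic acid, only Ifih1 among 14 genes tested passed. Ifih1, which encodes the RNA sensor MDA5, was at 0.28, 0.60 and 0.79 against -2.87, -2.82, -2.79 and -1.87 (8.85-fold, adjusted p = 0.00031, limma). Sting1, the adaptor of cytosolic DNA sensing, was at 0.78 to 1.24 against 0.64 to 1.05, and Zbp1 at 1.89 to 2.33 against 2.21 to 2.39. The 6 interferon and receptor genes with a kept probe did not pass, none of them at an unadjusted p below 0.05 either. Both chains of the interferon gamma receptor were measured in every fibre, with differences of -0.07 for Ifngr1 and -0.12 for Ifngr2. Ifna1 was at -2.96 to -2.63 with the vector and at -2.93 to -2.44 in wild type.

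Signal transducers rose for 6 of 23 genes. Irf7, the amplifier of type I interferon production, was at -0.45, -0.42 and 1.35, against wild type levels not well above background, and was at least 10.4-fold higher (adjusted p = 1.7e-07, limma). Irf9, the DNA-binding part of the ISGF3 complex, was at 2.07, 2.13 and 2.41 against -0.99 to -0.46 (7.76-fold, adjusted p = 1.9e-05, limma). Its partner Stat2 was at -0.23 to 0.52 against -3.65 to -1.44 (2.45, adjusted p = 0.0074, limma), a call lost without MCU vector fibre 3 (adjusted p = 0.098). Irf8 rose by 3.08 and Stat3, which mainly serves the interleukin-6 family, by 1.22. Irf1, an interferon-induced transcription factor, was at 3.61, 3.42 and 4.07 against 1.36 to 2.20 (adjusted p = 0.023, limma), with -0.38 on its other kept probe. Its call was lost without any of 6 fibres (adjusted p = 0.054 to 0.19), all but wild type fibre 3. Ciita, the activator of MHC class II genes, was at 3.51, 3.56 and 3.57 against 3.51 to 4.20, a difference of -0.29 that did not pass.

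**Figure D3:**
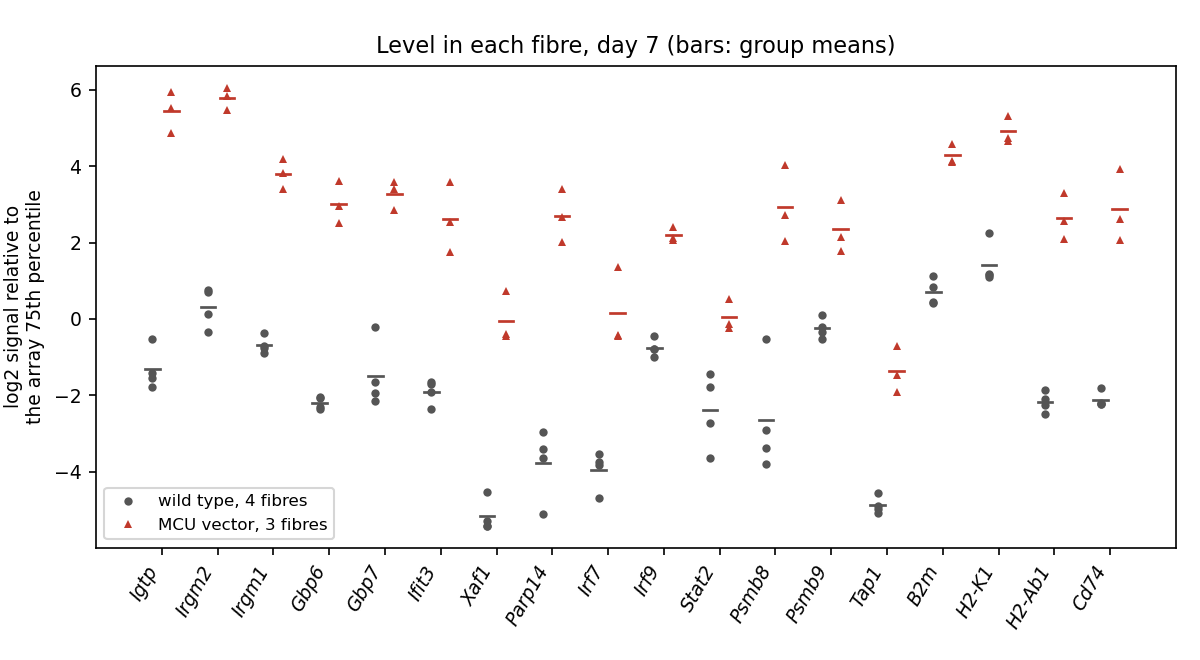
Level of 18 interferon and antigen presentation genes in each fibre at day 7 (log2 signal over the 75th percentile of its array); grey circles are the 4 wild type fibres, red triangles the 3 MCU vector fibres and bars the group means. In all 18 genes the MCU vector fibres lie above the wild type fibres, from a difference of 2.45 in Stat2 to 6.76 in Igtp. All 18 were picked from the genes that passed.

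MHC class I chains, which present peptides from inside the cell, rose for 11 of 16 genes tested, with a median difference of 3.03. B2m, the light chain of every class I molecule, was at 4.14, 4.12 and 4.58 with the vector and at 0.84, 0.44, 1.13 and 0.42 in wild type (11.9-fold, SE of the log2 difference 0.36, adjusted p = 2.5e-07, limma). H2-K1, a classical heavy chain, was at 4.66, 4.75 and 5.32 against 1.10 to 2.26, the highest being wild type fibre 3. H2-T23, a ligand of natural killer cell receptors, rose by 2.82, and H2-Q2, H2-Q6 and H2-Q10 by 3.67, 3.06 and 3.57. The other kept probe of H2-Q10 gave -0.18. Class I genes are near-copies of each other, so their rises are not separate measurements.

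The immunoproteasome replaces catalytic subunits of the standard proteasome to cut peptides for class I, and 6 of the 13 genes of the peptide loading list rose (median 1.31, and 0.83 with normexp). The loading chaperones Calr, Canx and Pdia3 were among the 7 that did not pass, with differences of -0.04, 0.09 and -0.02. Psmb8 was at 2.03, 2.72 and 4.04 against -3.81, -2.92, -0.52 and -3.38, a rise that passed (adjusted p = 2.4e-06, limma) but whose size is uncertain, since only 1 wild type array was well above background. Psmb9 was at 1.79, 2.14 and 3.11 against -0.53 to 0.10 (adjusted p = 1.5e-09, limma), and Psmb10 at 3.12, 3.62 and 4.26 against 2.01 to 2.30. Psme2, a proteasome activator subunit, rose by 1.31, with its call lost without MCU vector fibre 3 (adjusted p = 0.095). The peptide transporter gene Tap1 was at least 3.69-fold higher, and Tapbp, which holds class I at the transporter, rose by 1.69 (adjusted p = 0.0038, limma, and 0.054 without MCU vector fibre 3). None of the 31 genes of the constitutive proteasome passed, and their median difference was 0.11. Psma3 was at 5.36 to 5.47 against 4.69 to 5.27.

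MHC class II genes, whose products normally display peptides on professional antigen-presenting cells, rose for 6 of 9 genes tested, with a median difference of 3.96, which was 1.84 with normexp. Cd74, the invariant chain, was at 2.06, 2.62 and 3.93 with the vector and at -1.82, -2.23, -2.21 and -2.22 in wild type (31.8-fold, adjusted p = 2.8e-08, limma). H2-Ab1 was at 2.09, 2.57 and 3.29 against -2.48 to -1.87, a difference of 4.83 (adjusted p = 2e-07, limma). H2-Eb1 rose by 3.96 and H2-DMa, which edits the bound peptide, by 2.59. H2-Aa and H2-DMb1 were not well above background in wild type and were at least 23.6-fold and 19.3-fold higher. By probe position on mm9, 30 of the 175 genes tested between Tapbp and H2-M2 (chr17:34065963-37618439, the MHC region) rose, which is 17.1%, and none fell. Both ends of this stretch were set at genes that rose, which raises the share by choice. Near-copies among the class I genes are counted in it one by one, so it is a description only. Chromosome 17 as a whole held 34 of the 126 genes that rose (2.75% of its genes tested), chromosome 18 held 8 (1.31%) and chromosome 11 held 14 (0.816%).

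Markers of cells that carry class II were looked at beside these rises. None of the 11 macrophage and monocyte, 11 T and NK cell, 4 B cell, 3 dendritic cell and 4 neutrophil markers tested passed. Ptprc, the pan-leukocyte marker CD45, was at -1.04 to -0.49 with the vector and at -0.70 to -0.46 in wild type. Adgre1, the macrophage marker F4/80, was not well above background on any MCU vector array. Summed signals, in units of the 75th percentile, were 332 to 351 with the vector against 305 to 368 in wild type for the macrophage list, but 1 probe, for Itgam, made up most of it. Without Itgam they were 35.0 to 40.7 against 39.8 to 47.8. For the T and NK cell list they were 12.5 to 13.1 against 13.1 to 14.6. The dendritic cell sum (66.4 to 74.8 against 66.8 to 80.7) was nearly all Siglech, and without it was 0.570 to 0.672 against 0.541 to 0.735, with 5 of the 8 markers on that list not well above background on any MCU vector array. Such sums do not follow the dimmer markers. C1qa, a complement gene of macrophages, was at -1.65, -3.06 and -2.54 against -4.44 to -2.60, well above background on 3 of 3 vector arrays and 1 of 4 wild type arrays, a difference of 1.15 (95% interval 0.11 to 2.18) that did not pass (adjusted p = 0.84, limma). The neutrophil genes S100a8 and S100a9 were well above background on 1 and 2 vector arrays and on no wild type array, and were not tested. Of single markers, Cd68 was at 1.06, 0.01 and -1.51 against -1.52 to -1.16, and Fcer1g at -0.93, -2.10 and -3.14 against -3.59 to -2.50. In both, fibre 1 was the highest and fibre 3 the lowest, and in C1qa fibre 1 was the highest and fibre 2 the lowest. Cd74 and H2-Ab1 were highest in fibre 3 and lowest in fibre 1. Csf1r, another macrophage marker, differed by -0.02 on its brightest probe and by 0.17 and 1.29 on others, none of which passed. The order of 3 fibres in a few markers is a description, and whether other cells add to the class II rise was not tested. Fewer cells of a type and less RNA per cell cannot be told apart in such samples.

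Ligands and checkpoints of the immune system rose for 3 of 11 genes. Cd274, which encodes PD-L1, a brake on T cells, was at -1.01, -0.21 and 0.80 with the vector, was not well above background in wild type, and was at least 8.62-fold higher (adjusted p = 2.8e-13, limma). Its wild type SD of 0.07 is that of dim spots, so this p-value does not rest on a measured spread between wild type fibres. At day 14 no MCU vector or wild type array measured it well above background either. Tnfsf10, the death ligand TRAIL, was at least 4.57-fold higher, and Il18bp, a decoy for interleukin-18, rose by 2.48 (adjusted p = 7.9e-05, limma). Lgals3bp was at 1.77, 1.90 and 2.16 against -0.59 to 1.27 and did not pass (adjusted p = 0.058, limma), while its other kept probe was 1.83 higher (adjusted p = 0.00035 over probes, limma). None of the 11 chemokine genes passed. Cxcl10, a T cell attractant that interferons induce, was at -1.56 in MCU vector fibre 1 but at -5.31 and -4.98 in fibres 2 and 3, as low as the wild type fibres at -5.14 to -4.93. Cxcl9 was at 0.31, 0.54 and 0.97 against 0.02 to 0.54. None of the 13 complement and serpin genes or of the 11 cell death and inflammasome genes passed.

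**Figure D4:**
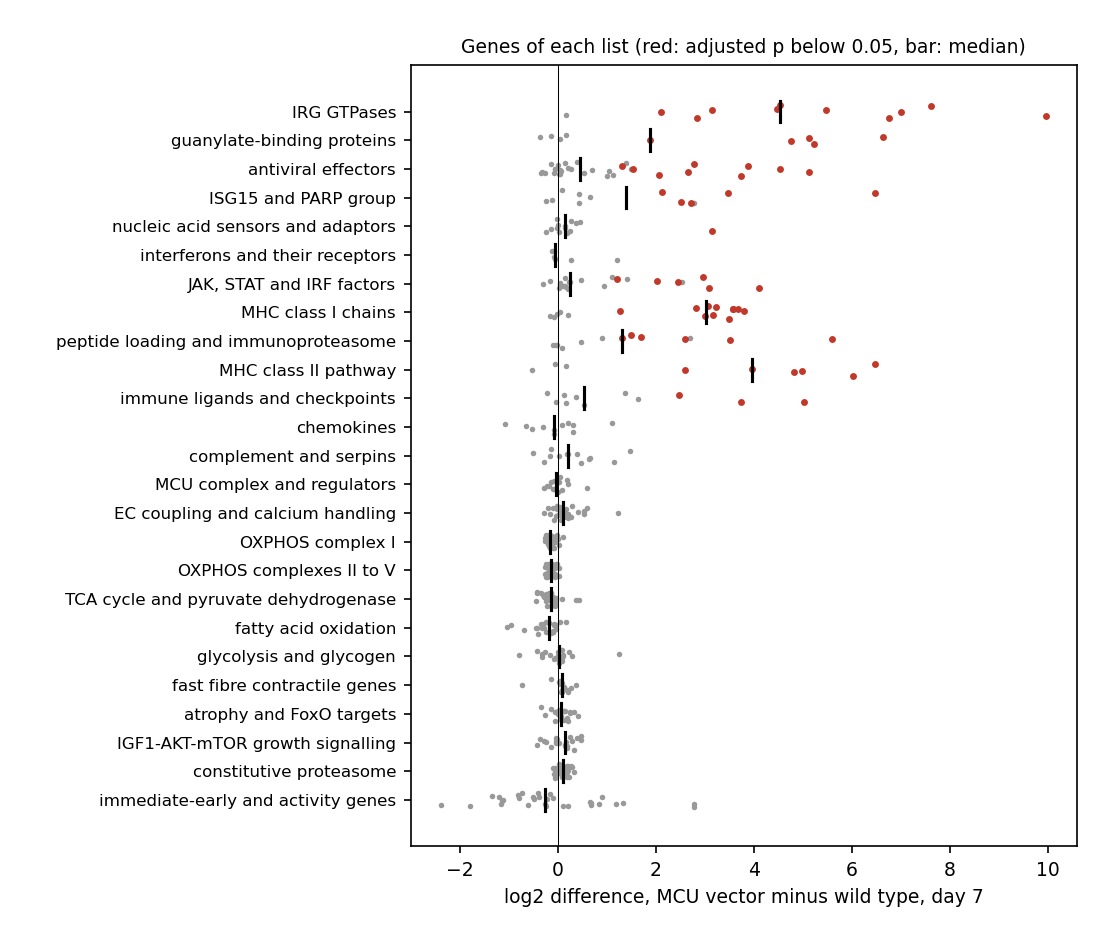
Difference at day 7 (x axis, log2, MCU vector minus wild type) for each gene tested in 25 of the 35 gene lists; red points passed at an adjusted p below 0.05, grey points did not, and a black bar marks the list's median. Red points stand on the interferon and antigen presentation lists, with medians up to 4.53, and none on the lists for metabolism, contraction and growth. The extracellular matrix list, which is not drawn, held 1 gene that passed, Timp1.

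Genes of muscle metabolism and mass did not pass at day 7. None of the 37 complex I genes and 40 genes of complexes II to V passed, also not at an unadjusted p below 0.05, where 2.52% of all genes were higher and 2.82% lower. Their medians of -0.15 and -0.14 lay below the median of -0.01 over all genes, and single genes ran from -0.26 to 0.10. Wild type fibres 1 and 4 were highest among all 7 for Uqcrc2 (6.61 and 6.71), with the others at 5.78 to 6.44. Fatty acid oxidation (25 genes, median -0.18), the tricarboxylic acid cycle (27, median -0.13) and glycolysis (24, median 0.02) held no gene that passed. Nor did excitation-contraction coupling (30 genes, median 0.11), where Srl, sarcalumenin, was at 5.86, 6.13 and 5.87 against 5.49 to 5.85 and Slc8a3 at 7.25 to 7.36 against 7.44 to 7.75. The other kept probe of Slc8a3 differed by 0.25 (SE 0.24), beside -0.28 on this one. The growth signalling list (21 genes), the atrophy list (23, median 0.06), the autophagy list (29, median 0.02) and the list on mitochondrial biogenesis (18, median -0.08) were likewise without a call. Fbxo40, a muscle ubiquitin ligase subunit, was at 4.28, 4.75 and 4.31 against 3.85 to 4.45.

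Of 19 genes of the acetylcholine receptor and denervation list none passed, but 4 had every MCU vector fibre above every wild type fibre (background 4.04%). Chrnb1, a receptor subunit, was at 1.12, 0.91 and 0.71 against 0.09 to 0.29 (0.75, SE 0.22, adjusted p = 0.25, limma). Chrna1 was at 1.31, 0.91 and 0.66 against -0.02 to 0.31, and Chrng, the fetal subunit, at 0.92, 0.34 and 0.66 against -0.51 to 0.13. The other kept probe of Chrna1 differed by 0.32, beside 0.85 on this one. Ncam1, an adhesion molecule that spreads over denervated fibres, was at 1.46, 0.79 and -0.38 against -1.13 to -0.71. All 4 were highest in fibre 1. Among antioxidants, Mt3, a metallothionein, was at 4.26, 3.30 and 1.55 against -0.32 to 1.25 and did not pass (2.86, SE 0.75, adjusted p = 0.12, limma), and Lamp2, a lysosomal membrane protein, was at 2.23 to 2.31 against 1.58 to 1.84 (adjusted p = 0.46, limma).

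MCU vector fibre 1 stood apart from the other vector fibres in immediate-early and activity genes. It had the highest level of the 3 for 30 of 31 immediate-early and activity genes tested, against 27.7% of all genes. Over all genes, every MCU vector fibre was below every wild type fibre for 4.15%, and no gene of the list was. Fosl1 was at -0.19, -3.20 and -3.42 with the vector and at -5.25 to -4.71 in wild type, and Ankrd2, a stretch-response gene, at 3.93, 2.78 and 1.92 against -0.91 to 1.93. In others fibres 2 and 3 lay below wild type: Fosb was at 5.17, 2.89 and 1.14 against 3.92 to 4.55, and Nr4a2 at -0.57, -3.08 and -5.00 against -1.07 to 0.03. The other kept probe of Nr4a2 differed by -0.32, beside -2.38 on this one. None of the 31 passed, and 2 were higher and 2 lower at an unadjusted p below 0.05 (all genes 2.52% and 2.82%). Timp1, an inhibitor of matrix proteases, passed (adjusted p = 0.016, limma, at least 3.77-fold higher), but it was at 1.02, -1.13 and -3.88 in the vector fibres, of which 2 measured it well above background. Its call was lost without fibre 1 (adjusted p = 0.27), without fibre 2 (0.098), without wild type fibre 3 (0.054), with normexp (0.091) and with dim spots at the lowest signal well above background (0.36). Among wild type fibres, fibre 3 stood apart, with 124 genes at least 2-fold above the other 6 fibres, beside 248 for MCU vector fibre 1 and 8 to 33 for the rest. Dcn, a fibroblast marker, was at 2.61 in it, at -4.91 to -3.05 in the other wild type fibres and at -4.22, 0.20 and -4.61 with the vector. Acta2, a mural cell marker, was at 3.11 in it and at -2.36 to -2.03 in the other wild type fibres. The part of these fibres' differences in the results was not tested beyond leaving each out.

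**Figure D5:**
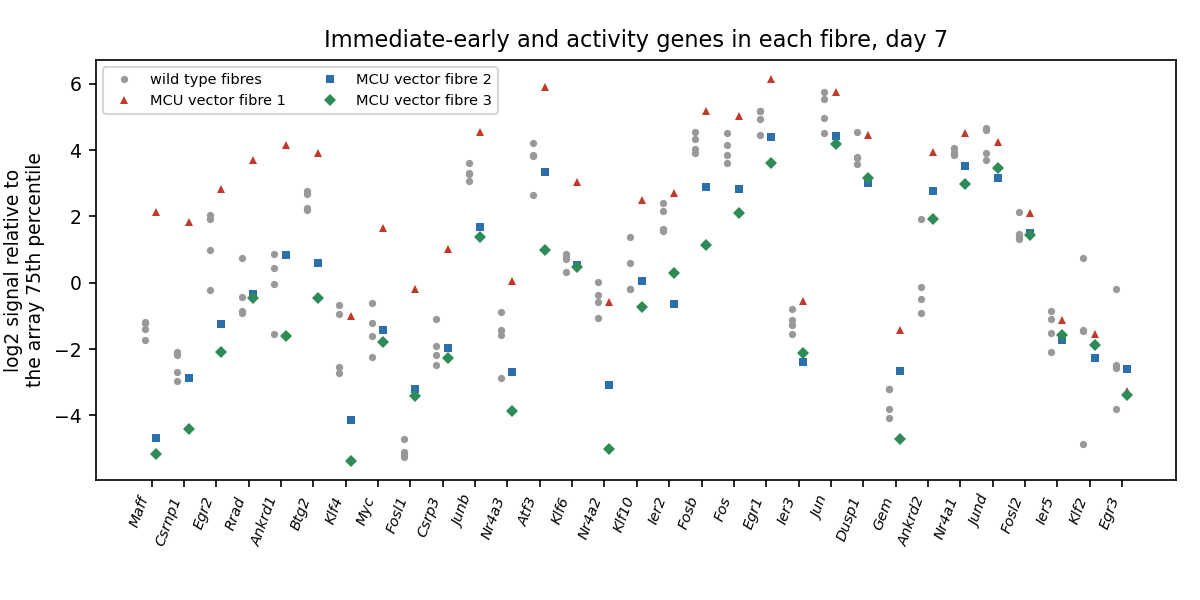
Level of the 31 immediate-early and activity genes in each fibre at day 7 (log2 signal over the 75th percentile of its array), ordered by how far MCU vector fibre 1 lies above the other vector fibres. Red triangles (fibre 1) lie above blue squares (fibre 2) and green diamonds (fibre 3) for 30 of the 31 genes; grey circles are the wild type fibres.

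Of the 8 lower genes, 4 carry a gene symbol. The largest fall was that of a transcript without one on chromosome 5, at -2.79 to -1.64 in wild type and not well above background on any vector array, at least 2.81-fold lower (adjusted p = 0.0075, limma). Clec14a, a lectin of blood vessel walls, was at -0.93, -1.14 and -1.44 with the vector and at 0.13, -0.31, -0.03 and -0.36 in wild type (-1.03, adjusted p = 0.011, limma). It was the only marker of another cell type to pass, and the other 7 endothelial genes tested did not. Kdr, the brightest of them, was at 3.37 to 3.39 against 3.37 to 3.61. Esam, Egfl7 and Pecam1 differed by -0.67, -0.55 and -0.47, in the direction of Clec14a. Their 95% intervals were -1.67 to 0.33, -2.2 to 1.11 and -2.23 to 1.29. Emcn, Cldn5 and Vwf differed by -0.06, -0.02 and 0. The list's median level was 0.01 in wild type fibre 3 and -2.12 to -1.39 in the other wild type fibres. With the vector that median was -1.65 to -1.12. Differences of the 8 endothelial genes tested ran from -1.03 to 0, with a median of -0.29. The call for Clec14a was lost without MCU vector fibre 2 or 3 or wild type fibre 1 (adjusted p = 0.054 to 0.15). 9330159F19Rik was at -0.44, 0.01 and 0.42 against 0.78 to 1.06 (adjusted p = 0.0047, limma, and 0.11 without MCU vector fibre 1). 2410080I02Rik was at 0.42 to 0.57 against 0.94 to 1.39 (adjusted p = 0.027, limma) and lost its call without any of 5 of the 7 fibres (0.078 to 0.18). Thnsl1, a threonine synthase-like gene, was at 3.64 to 3.94 against 4.16 to 4.38 (adjusted p = 0.037, limma). Its other kept probe gave 0.24, and the call was lost without any of 5 of the 7 fibres (0.079 to 0.30).

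The day 14 fibres show how far these effects belong to day 7. With the vector, 76 genes were higher at day 14 (0.326%), and 32 genes were higher at both days, which is 25.4% of the day 7 genes and 42.1% of the day 14 genes. The effect differed between days for 46 genes: 42 had a smaller effect at day 14 (0.18%) and 4 a larger one (0.0171%), and all 42 had risen at day 7. Without MCU vector fibre 3 of day 7 the count was 29 rather than 46. The contrast uses the same day 7 values by which the 42 passed, so their rise at day 7 is no separate support. For some, such as Iigp1b, Cd274 and Trim21, no wild type array of day 7 and no day 14 array of either group was well above background. Such genes may have been kept through the day 7 MCU vector fibres alone, so a smaller effect at day 14 is then no independent result. For Gm4951 the difference went from 7.62 to 1.10 (change -6.52, adjusted p = 1.8e-06, limma), for Irgm1 from 4.48 to 0.06 and for Gbp10 from 5.13 to 0.03. Psmb9 went from 2.59 to 0.04 and H2-Ab1 from 4.83 to 0.50. Class I chains kept more of their difference: 10 of 16 had also passed at day 14, with a list median of 1.82 beside 3.03 at day 7. B2m was 2.21 higher at day 14 (adjusted p = 0.00095, limma), and its change of -1.37 between days did not pass. Days lie on separate slides, each with its own wild type fibres.

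A transfected control of day 7, fibres that received an AAV without MCU, was hybridised on another slide than the MCU vector fibres, so slide and group cannot be told apart and its levels are given without a test. Igtp was at -0.89 to 0.75 in its 4 fibres, beside 4.86 to 5.94 with the MCU vector, and Cd74 was at -3.38 to -2.28 beside 2.06 to 3.93. B2m was at 1.12 to 3.44, between the wild type range of 0.42 to 1.13 and the MCU vector range of 4.12 to 4.58; its lowest fibre touched the wild type range. Ifit3 was at -5.52 to -5.12, below wild type at -2.36 to -1.66. Stat3 was at 4.43 to 5.09, beside 4.19 to 4.68 with the MCU vector, and Irf1 was at a mean of 3.37 ± 0.14 (SD, n = 4), beside 3.70 ± 0.34 (SD, n = 3).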

How the data were processed

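RNA of single fibres was amplified, labelled with Cy3 and hybridised to 1-colour Agilent arrays, 1 fibre per array, per the labels' protocols. The deposited files hold the scanner's intensity values and flags per spot, made by the authors with Agilent Feature Extraction 10.7.3.1, per the file headers: the processed signal is background-subtracted and detrended within an array, dim spots carry surrogate values, and probe positions are on mm9. A series-wide value table, also intensity as deposited by the authors, served as an alternative, and its steps are not given in the sources used here.

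Here log2 of the processed signal was scaled to each array's 75th percentile. Control spots and spots flagged as outliers were left out, and spots of a probe were averaged. A probe was kept where 3 or more arrays of some group were flagged well above background, which left 33163 probes, and each gene's brightest kept probe stands for it (23341 genes). A gene could thus be kept through only the group in which it was high. Symbols on the array were updated through RefSeq tables where an accession or a synonym matched. All 30 arrays entered 1 limma fit (limma 3.58.1, R 4.3.3) with a mean per group, and p-values were adjusted over all genes by Benjamini-Hochberg, with 0.05 as the threshold. Day 7 and day 14 effects were compared by their difference in that fit. The steps were tested on simulated data. The number of arrays limits the precision.

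Replicate numbers are shared between groups, but the deviations of same-numbered fibres correlated at -0.0124, 0.0849 and -0.0434, so the numbers were not taken as pairs. The members and gene lists were chosen with earlier results of these data known. Genes named in the text are the uniporter genes, the 15 largest measured rises, the 10 largest bounded rises, lower genes with a symbol, and up to 6 genes of each list by the size of their moderated statistic. Other genes named, such as Isg15, Ciita, Oas1a, Parp9 and Gbp5, were chosen after their values were seen. Alternatives changed the scaling, background correction, filter, probe rule, variance model, arrays in the fit and replicates. Some members of the lists are not reported here by name.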

Additional observations from a re-analysis of the deposited data

Results flagged for a closer look

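Among 61 named results looked at, in 6 genes 1 of the 4 wild type fibres of day 7 lay far from the other wild type fibres by Dixon's test, which flags about 1 in 20 groups by chance. Wild type fibre 3 was the high fibre in 5 of them. Xaf1 was at -4.52 in it, against -5.42 to -5.29 in the others, Tnfsf10 at -3.46 against -5.26 to -5.08, and Gbp4 at -3.01 against -5.39 to -5.28. No wild type array measured Xaf1 or Tnfsf10 well above background, so these levels lie in the background. H2-K1 was at 2.26 in it, against 1.10 to 1.18, and Ifih1 at -1.87 against -2.87 to -2.79. In Cd74, wild type fibre 1 was at -1.82 and the others at -2.23 to -2.21.

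For 29 named genes the effect of the MCU vector differed between day 14 and day 7 by the test of the difference itself (limma, adjusted over all genes). Values below are the day 14 effect minus the day 7 effect on the log2 scale. Mcu alone had the larger effect at day 14, by 3.30. Among IRG genes and their neighbours the change was -6.76 for Iigp1b, -6.52 for Gm4951, -5.43 for Gm12185, -4.70 for 9930111J21Rik2, -4.43 for Irgm1, -4.03 for Igtp and -3.06 for Iigp1. In the GBP family it was -5.27 for Gbp6, -5.10 for Gbp10 and -3.49 for Gbp7. Class II genes changed by -5.39 (H2-Aa), -4.69 (H2-DMb1), -4.33 (H2-Ab1), -3.92 (H2-Eb1), -3.21 (Cd74) and -2.34 (H2-DMa). Peptide loading genes changed by -4.83 (Psmb8), -3.64 (Tap1), -2.55 (Psmb9) and -1.60 (Psmb10). The other effects changed by -4.94 for Cd274, -4.84 for Xaf1, -4.39 for Parp14, -4.03 for Parp12, -3.72 for Trim21, -3.18 for Irf7, -2.76 for Ifit3 and -2.59 for Ifit3b. Where wild type or day 14 fibres were not well above background, as for Iigp1b, Cd274 and Trim21 at day 14, the size of the change rests on values at the dim end of the scale.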

How the results depend on the processing

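Of the 60 named genes that passed, 45 passed under all 22 alternatives, 15 lost their call under some and none changed direction. The count of higher genes stayed within 1.5 times of 126 except with array weights, which gave 227 higher genes, 116 lower genes and 96 genes with a day difference, so that 66.2% rather than 94% of the called genes were higher. Normexp background correction gave 17 lower genes and 77 with a day difference, and dim spots set to the lowest signal well above background gave 22 lower genes. Without any 1 fibre, 109 to 125 genes were higher, 5 to 11 were lower, 29 to 54 differed between days and the Mcu difference was 0.44 to 0.69. The lower genes were not the same ones: 2 to 6 of the 8 lower genes of the full fit were among them. With only the arrays of the groups compared, 11 genes were lower and 1 of them was among the 8. With the replicate number within a slide as a block, although the numbers do not pair fibres, 109 genes were higher, 6 were lower, 29 differed between days and the Mcu difference was 0.68. With the block 8 of the named genes no longer passed, among them Usp18 (adjusted p = 0.17). A fit of the 4 day 7 groups alone, chosen after seeing the data, gave 105 higher and 3 lower genes, and each kept probe tested on its own, also added then, gave 136 and 12. The cause of these differences was not tested. Normexp lowered the median of the class II list from 3.96 to 1.84 and that of the GBP list from 1.89 to 0.38, and a stricter filter on dim probes gave the GBP list 3.32. Changes of genes that are dim in wild type fibres are limited by their signal over background.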

Other observations

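Several genes outside the lists rose, and those named here were chosen after their values were seen. Des, desmin, the intermediate filament protein that links myofibrils, was at 7.51, 7.50 and 7.39 with the MCU vector and at 6.64, 6.61, 6.56 and 6.76 in wild type, a small but tight difference of 0.82 (SE 0.13, adjusted p = 0.00022, limma). Tnfaip2, a gene induced by tumour necrosis factor, was at 4.27, 4.45 and 4.39 against 2.45 to 2.96 (1.62, adjusted p = 1.4e-06, limma), with 1.46 on its other kept probe. Egfr, the epidermal growth factor receptor, was at 2.94, 2.95 and 3.15 against 1.54 to 2.30 (1.14, adjusted p = 0.0015, limma). Nmi, an interferon-induced partner of STAT proteins, rose by 1.98 (adjusted p = 0.002, limma). Apol9b, whose promoter window holds ISRE cores, rose by 2.79, and Rbm43, whose window also does, was at least 1.90-fold higher.

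Of the 126 genes that rose, 24 carry no gene symbol. The probe for TC1703733, a transcript cluster on the array without a gene symbol, was at 3.99, 4.34 and 4.58 with the MCU vector, was not well above background in any wild type fibre and was at least 187-fold higher (adjusted p = 1.4e-08, limma). Cep162, a centrosomal gene, rose by 2.03 on its brightest probe, but its other kept probes gave -0.07 to 0.38, so the rise belongs to that probe.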
